A study of Saccharomyces cerevisiae with 24 samples.

Results

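The comparison set the response of budding yeast to cisplatin against its response to bleomycin. Each response was taken from arrays processed under the same day label. The cisplatin effect comes from a linear fit to 2 cisplatin arrays and control arrays with day as a block. The bleomycin effect is the same for 3 bleomycin arrays, and the difference reported throughout is the cisplatin effect minus the bleomycin effect. A same-day change is the signal of a treated array minus that of its day's control. Day D holds both agents, so a fitted effect can differ from the mean of the same-day changes. For NCA3 the cisplatin changes were 0.48 and 0.83 and the fitted effect was 0.47. All 9275 probe sets that are not control probe sets of the array entered the comparison, and 9 of the 24 arrays of the series carry it. These are 2 cisplatin arrays (days A and D), 3 bleomycin arrays (days B, C and D) and 4 control arrays (control replicate 1 on day A, 2 on day B, 4 on day C and 5 on day D). Day D holds 1 array of each agent and 1 control array that both effects share, so the effects are not independent of each other.

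Cells of strain BY4730, a laboratory haploid that lacks LEU2, MET17 and URA3, were kept with an agent for 120 min before RNA was taken. The titles give 500 ug for cisplatin replicate 1 and 650 ug for cisplatin replicate 2, with no volume, and the label text gives another unit, so the cisplatin concentration is not settled. The titles give 0.15 U/ml of bleomycin for replicates 1 and 3 and 0.1 U/ml for replicate 2. Doses of the agents are therefore not matched, and a difference between them holds for these exposures. Control cells had either the solvent DMSO or medium alone, and the labels do not say which array had which. Nothing in the labels says that arrays of a group came from separate cultures, so p-values measure the spread between arrays, which may be technical in part.

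Cisplatin is a platinum compound that binds purine bases and crosslinks neighbouring bases of DNA, which blocks polymerases and is repaired largely by excision of the damaged stretch and by recombination. Bleomycin is a glycopeptide that, with iron and oxygen, cuts the sugar backbone of DNA and leaves broken strands. In yeast both kinds of lesion can activate the checkpoint kinases Mec1, Rad53 and Dun1, which lift the repressor Rfx1 from the genes of ribonucleotide reductase and from HUG1.

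Values are normalized signals on the log2 scale, so a difference of 1 is a doubling, and a level of one probe set cannot be set against that of another. A probe set is called here where limma's fit with day as a block gave it a p under 0.05 after Benjamini-Hochberg adjustment over all 9275. Errors are standard errors of that fit.

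Against same-day controls each agent changed 197 probe sets. With cisplatin, 82 probe sets rose (0.884%) and 115 fell (1.24%). With bleomycin, 149 rose (1.61%) and 48 fell (0.518%). These counts moved with single arrays and with the fit. When 1 of the 9 arrays was left out, the cisplatin count lay between 12 (without cisplatin replicate 1 or control replicate 1) and 307 (without cisplatin replicate 2), and the bleomycin count between 43 (without bleomycin replicate 3) and 142. With the ACT1 5′ signal described below as a covariate they were 14 and 138. Without control replicate 11, an array of another day that enters only the estimate of the spread, they were 1295 and 500. The difference between the agents was called for 9 of 9275 probe sets (0.097%), of which 6 were higher with cisplatin (0.0647%) and 3 lower (0.0323%). At an unadjusted p under 0.05 there were 823, and 525 among the 5656 genes read from 1 probe set each. The 6 were DSE2, AAD4, ARO10, ATR1, ARG1 and a probe set with no gene name here, and the 3 were HUG1, NCA3 and BDH2. In all 9, both cisplatin changes lay on 1 side of all 3 bleomycin changes. The calls were made from the same arrays, so this is a description and adds no separate support. Over all probe sets, 12.8% had both cisplatin changes above and 12.7% had both below the bleomycin changes. The median difference over all probe sets was 0.02.

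**Figure D1:**
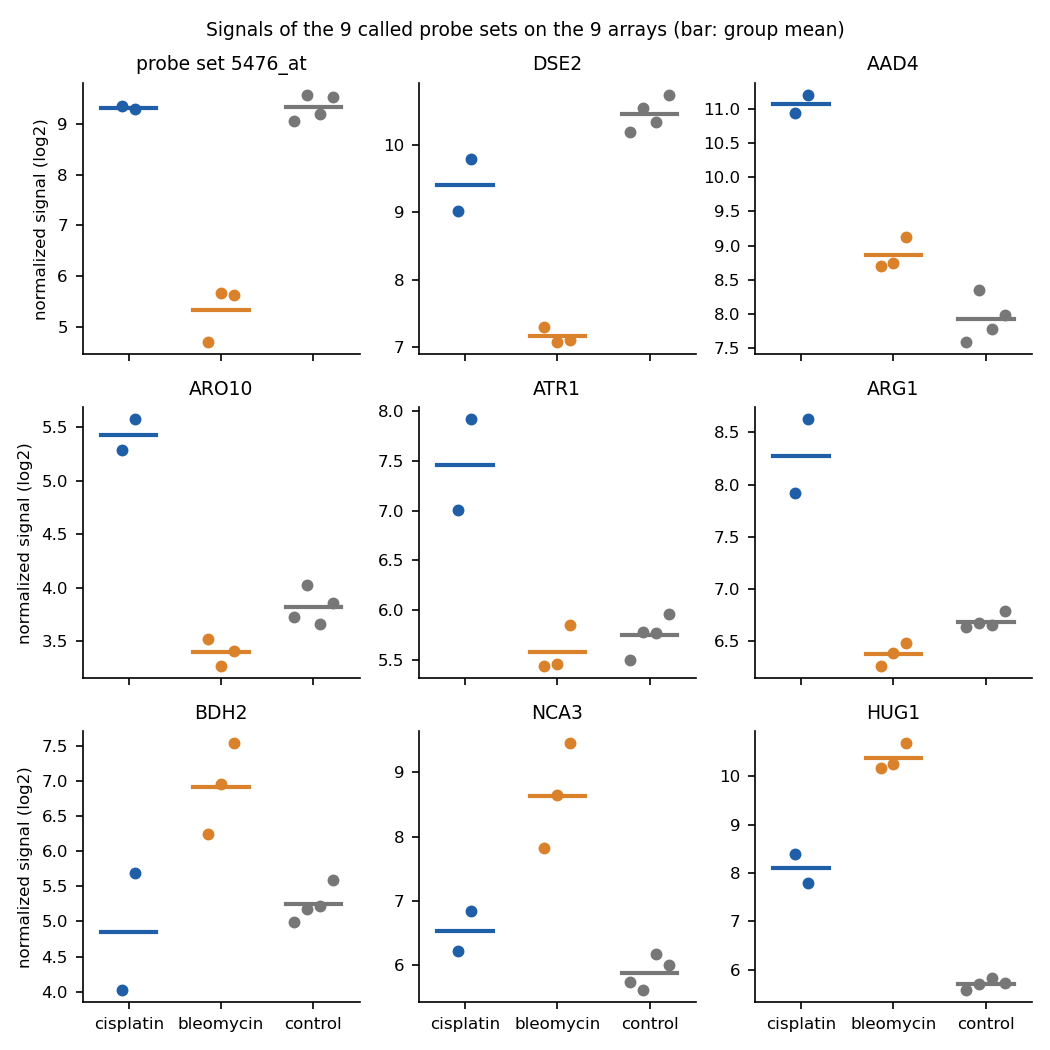
Normalized log2 signals (vertical axes, each with its own range) of the 9 called probe sets on the cisplatin (blue), bleomycin (orange) and control (grey) arrays; points are arrays and bars are group means. For 5476_at, DSE2, NCA3 and BDH2 the cisplatin mean lies nearer to the control mean than the bleomycin mean does, and for AAD4, ARO10, ATR1 and ARG1 the bleomycin mean does.

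Not all of these arrays were alike in RNA state. The array carries probe sets along ACT1, the actin gene, and SPT15, the TATA-binding protein gene, whose 5′ signals fall when transcripts are short or copied in part. The ACT1 5′ signal changed by -5.29 and -0.13 on the 2 cisplatin arrays against their same-day controls, and by 0.96, -0.63 and -0.47 on the 3 bleomycin arrays. The SPT15 5′ signal changed by -2.30 and -0.29 with cisplatin and by -0.48, -0.83 and -0.56 with bleomycin. Cisplatin replicate 1 thus stood apart from its control in 5′ signal, while its ACT1 3′ signal differed by -0.09. On day B both the bleomycin array and its control had low ACT1 5′ signals, 6.25 and 5.29. Values without cisplatin replicate 1 are given below where they move a call, and for some of the medians. Those from a fit with the ACT1 5′ signal as a covariate are given for the calls as a whole and for some medians. Over all probe sets the same-day changes of the 2 cisplatin arrays differed by more than 2 for 102 probe sets, against 31, 33 and 5 for the 3 pairs of bleomycin arrays. The a-cell genes MFA1, MFA2, STE2, BAR1, AGA2 and STE6 lay between 4.85 (STE6) and 12.88 (MFA1) on the 9 arrays. The alpha-cell genes STE3, MF(ALPHA)1, MF(ALPHA)2 and SAG1 lay between 3.61 (STE3) and 7.05 (SAG1). These ranges overlapped, and signals of different probe sets cannot be set against each other, so they do not settle the cell type. Of the deleted genes, URA3 lay between 3.17 and 3.53, MET17 between 3.76 and 4.10 and LEU2 between 5.12 and 6.18.

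**Figure D2:**
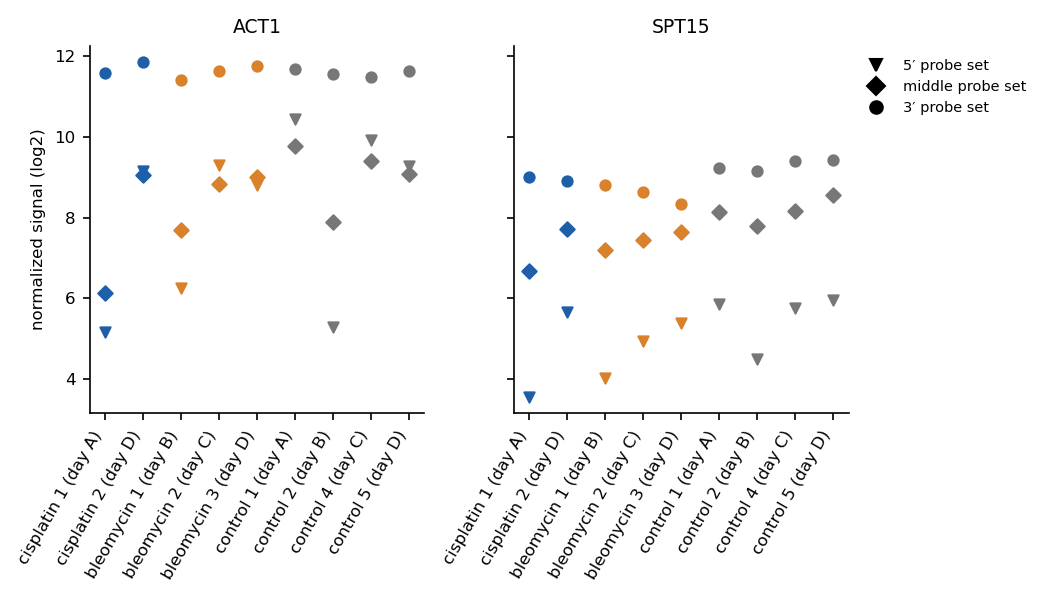
Normalized log2 signals of the 5′, middle and 3′ control probe sets of ACT1 (left) and SPT15 (right) on each of the 9 arrays, coloured by cisplatin (blue), bleomycin (orange) and control (grey). Cisplatin replicate 1 has an ACT1 5′ signal of 5.15 beside 10.44 in its same-day control, and the 3′ signals of ACT1 are level over the arrays.

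The calls depended on single arrays. A fit without either cisplatin array or without control replicate 1 leaves 1 cisplatin array with a same-day control, which is then assumed to vary like the arrays of the other groups. Without cisplatin replicate 1, 3 probe sets were called, and without its control, control replicate 1, also 3. These 3 were 5476_at, DSE2 and HUG1. Without cisplatin replicate 2, 98 were called, 92 of them lower with cisplatin, and 5 of the 9 were among them. Without bleomycin replicate 2 or control replicate 4, 4 were called. Without bleomycin replicate 3, limma called 0 probe sets, with 309 at an unadjusted p under 0.05. All 9 differences kept their sign in each of these fits. A fit with the ACT1 5′ signal as a covariate called 4, and all 4 were among the 9: 5476_at, DSE2, ARO10 and HUG1. In that fit ARG1 (adjusted p = 0.0661), AAD4 and NCA3 (0.0804 for each), ATR1 (0.117) and BDH2 (0.168) were not called.

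**Figure D3:**
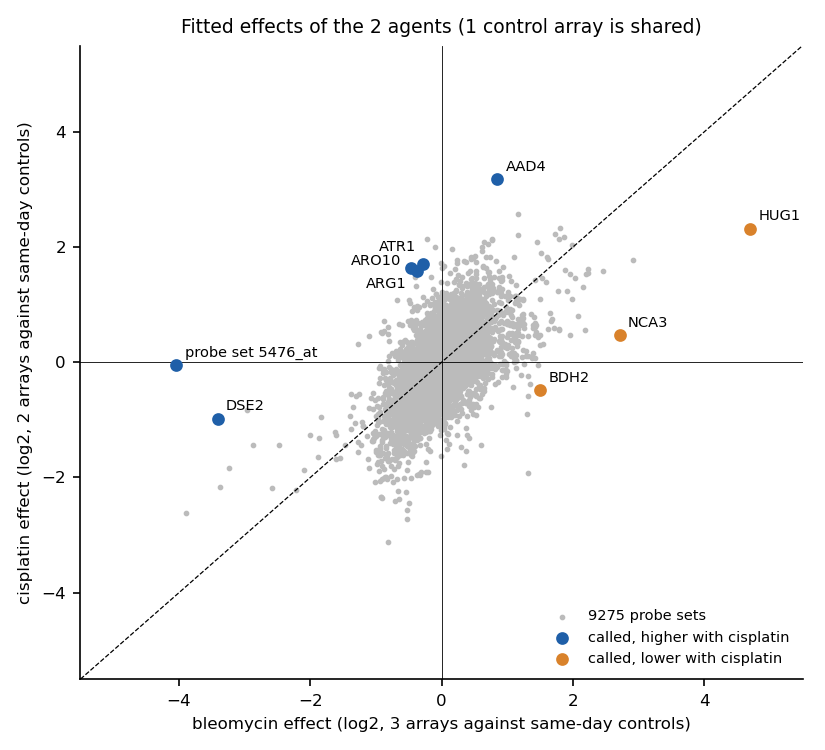
Fitted cisplatin effect (vertical, log2) against fitted bleomycin effect (horizontal, log2) for 9275 probe sets in grey, with the 6 called higher with cisplatin in blue and the 3 called lower in orange. The dashed line marks equal effects; HUG1 lies at 2.32 with cisplatin and 4.71 with bleomycin, and AAD4 at 3.18 and 0.85. The shared control array of day D moves both coordinates the same way.

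Of the DNA damage checkpoint genes, HUG1 rose with both agents and was called lower with cisplatin than with bleomycin. HUG1 encodes a small protein that binds ribonucleotide reductase and is made when the checkpoint is active. Its signals were 8.40 and 7.80 with cisplatin, 10.18, 10.26 and 10.68 with bleomycin, and 5.58, 5.70, 5.83 and 5.73 in controls. The 3 groups did not overlap, and the cisplatin arrays stood between the others. HUG1 rose 4.99-fold with cisplatin (adjusted p = 0.00453) and 26.1-fold with bleomycin (adjusted p = 1.37e-06). The difference was -2.39 ± 0.30 (adjusted p = 0.0117), or 5.23-fold lower with cisplatin. On day D alone, with 1 array of each agent, it was -2.88. The call was lost without cisplatin replicate 2 (-1.81, adjusted p = 0.0787) and without bleomycin replicate 3 (-2.02, adjusted p = 0.454).

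Ribonucleotide reductase makes the deoxyribonucleotides for DNA synthesis and repair. RNR2, its small subunit, had signals of 10.70 and 10.98 with cisplatin, 11.52, 11.56 and 11.75 with bleomycin, and 9.07, 9.30, 9.44 and 9.53 in controls. It rose with cisplatin (1.53 ± 0.27, adjusted p = 0.0219) and with bleomycin (2.20 ± 0.22, adjusted p = 0.000342), and the difference of -0.68 ± 0.30 was not called (adjusted p = 0.557). RNR3, the damage-induced large subunit, had 5.90 and 5.85 with cisplatin, 6.04, 6.98 and 7.39 with bleomycin, and between 4.64 and 5.09 in the 4 controls. Only the bleomycin effect on RNR3 was called (2.08, against 0.81 for cisplatin), but the difference itself was not (-1.27 ± 0.31, adjusted p = 0.208). RNR4, the partner of Rnr2 in the small subunit, differed by -0.93 ± 0.35 (adjusted p = 0.492). RNR1, the main large subunit, differed by 0.06, with a 95% interval of -0.56 to 0.69. The checkpoint kinase gene DUN1 rose with both agents, by 1.14 with cisplatin and 0.96 with bleomycin, and its difference of 0.18 had a 95% interval of -0.47 to 0.83.

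Of 18 measured genes in the list of ribonucleotide reductase and checkpoint targets, 4 rose with cisplatin and 7 with bleomycin, where 0.955% and 2.32% of all 5656 genes with a representative probe set rose. In 6 of the 18 both cisplatin changes lay below all bleomycin changes and in 2 both lay above, where 15.2% and 12.5% of all genes did so. The list's median difference was -0.11, against -0.04 over all genes. PLM2, which encodes a protein with a forkhead-associated domain, changed by 0.32 and 0.09 with cisplatin and by 0.74, 1.48 and 1.61 with bleomycin (difference -1.21 ± 0.25, adjusted p = 0.154). DDR48, a DNA damage-responsive gene, had the opposite order, with changes of 2.29 and 0.93 with cisplatin and 0.48, 0.08 and 0.27 with bleomycin (1.15 ± 0.41, adjusted p = 0.463). The genes of this list did not all differ in one direction.

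In 4 lists of repair genes, 2 of 17 homologous recombination genes (RAD54 and RFA1) and 1 of 10 base excision repair genes (MAG1) rose with cisplatin, where 0.955% of all genes did so. With bleomycin limma called 0 genes of the 4 lists, where 2.32% of all genes rose and 0.743% fell. At an unadjusted p under 0.05 were 4 recombination, 2 crosslink and post-replication, 1 nucleotide excision and 1 base excision repair gene. No share of all genes is given here for that p with bleomycin, so these counts have no background beside them. RFA1, a subunit of the single-strand DNA binding protein RPA, had effects of 1.23 with cisplatin (adjusted p = 0.0443) and 0.49 with bleomycin (adjusted p = 0.408). MAG1, a DNA glycosylase for alkylated bases, had signals of 5.61 and 5.92 with cisplatin, 5.09, 4.99 and 4.56 with bleomycin, and between 4.17 and 4.49 in the 4 controls. The 3 groups did not overlap. MAG1 rose with cisplatin (1.54, adjusted p = 0.0167), had 0.52 with bleomycin (adjusted p = 0.343), and differed by 1.01 ± 0.29 (adjusted p = 0.290). In nucleotide excision repair, which removes cisplatin adducts, limma called 0 of 16 genes for the difference, 0 were at an unadjusted p under 0.05, and the median was -0.10. In homologous recombination, which mends broken strands, 0 of 17 were called, 1 was at an unadjusted p under 0.05, and the median was 0.04. RAD54, a recombination motor protein gene, rose with cisplatin (1.02 ± 0.23, adjusted p = 0.0488), had 0.67 ± 0.19 with bleomycin (adjusted p = 0.132), and differed by 0.35, with a 95% interval of -0.23 to 0.93. The lists of interstrand crosslink and post-replication repair (17 genes, median 0.07) and of base excision repair (10 genes, median -0.17) also held 0 called, with 0 and 1 at an unadjusted p under 0.05. Of all 5656 genes, 525 were at an unadjusted p under 0.05 for the difference. The medians of these 4 lists lay within 0.2 of the value for all genes, and between -0.26 and 0.13 when any 1 of the 9 arrays was left out.

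DSE2 fell with bleomycin and was called higher with cisplatin than with bleomycin. DSE2 encodes a daughter-specific secreted protein that helps to degrade the wall between mother and bud. Its signals were 9.02 and 9.80 with cisplatin, 7.30, 7.08 and 7.12 with bleomycin, and 10.19, 10.55, 10.34 and 10.74 in controls. All 3 groups were apart, with cisplatin in the middle. DSE2 fell 10.6-fold with bleomycin (adjusted p = 6.48e-06), while its 1.97-fold lower level with cisplatin was not called (adjusted p = 0.0606). The difference was 2.43 ± 0.28 (adjusted p = 0.00954), or 5.40-fold. Without cisplatin replicate 1 it was 2.56 (adjusted p = 0.0440), and the call was lost without bleomycin replicate 3 (2.20, adjusted p = 0.334).

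Other wall genes of cell separation were measured without passing the test of the difference. CTS1, the chitinase that cuts the septum, had signals of 9.44 and 10.60 with cisplatin, 7.37, 7.92 and 8.42 with bleomycin, and between 10.55 and 11.02 in the 4 controls. Its difference of 2.14 had a standard error of 0.75 (adjusted p = 0.461). DSE1, a daughter-specific protein gene, fell with both agents, with changes of -2.39 and -1.49 on the cisplatin arrays and -3.20, -2.84 and -3.38 on the bleomycin arrays (difference 1.40 ± 0.40, adjusted p = 0.288). Its signals were 2.66, 2.19 and 2.54 with bleomycin and 3.08 on cisplatin replicate 1. These lie below the 20th percentile of all signals, 3.78, so the sizes of these falls are uncertain. EGT2, a cell wall protein of early G1, fell with both agents (-2.17 with cisplatin and -3.37 with bleomycin, difference 1.20 ± 0.32, adjusted p = 0.230). SCW11, a glucanase-like wall protein gene, also fell with both (-1.44 with cisplatin and -2.47 with bleomycin, difference 1.04 ± 0.25, adjusted p = 0.208). In all 4 of these preset genes both cisplatin changes lay above the bleomycin changes. Of all genes, 12.5% had both above and 15.2% both below. The preset genes were chosen with earlier results of these data known, so this is a description. In these cultures fewer cells at a stage and less RNA per cell at that stage cannot be told apart.

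PIR1, a gene for a wall protein with internal repeats that is made in early G1, fell steeply with both agents. Its signals were 6.52 and 7.54 with cisplatin, 5.85, 5.99 and 5.91 with bleomycin, and 9.52, 9.37, 9.96 and 9.91 in controls. The difference was 1.28 ± 0.30 (adjusted p = 0.194). Its relative PIR3 went the other way, with 5.03 and 4.95 with cisplatin, 5.93, 6.29 and 7.26 with bleomycin, and between 4.96 and 5.36 in controls (difference -1.73 ± 0.31, adjusted p = 0.0825). PIR3 rose with bleomycin (1.35, adjusted p = 0.0104), and its effect with cisplatin was -0.38 (adjusted p = 0.458). Over 12 genes of the M/G1 wall and Swi5 group 0 were called by limma, with 3 at an unadjusted p under 0.05 (525 of all 5656 genes). The median difference was -0.35. It was -0.14 without cisplatin replicate 1 and -0.48 without cisplatin replicate 2. The histone gene HTB2 fell with both agents, with effects of -1.87 for cisplatin and -2.10 for bleomycin, and differed by 0.24 (95% interval -0.61 to 1.09). The G1 cyclin gene CLN2 differed by -0.21 (95% interval -0.85 to 0.42).

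The widest difference of the 9275 in this fit belonged to probe set 5476_at, which the probe table used here pairs with no gene, and which is described because of its values. Its signals were 9.37 and 9.29 with cisplatin, 4.70, 5.66 and 5.63 with bleomycin, and 9.06, 9.57, 9.20 and 9.53 in controls. The cisplatin arrays lay within the range of the controls, and the bleomycin arrays lay far below both. It fell 16.5-fold with bleomycin (adjusted p = 1.33e-05) and changed by -0.05 ± 0.32 with cisplatin. The difference was 3.99 ± 0.36 (adjusted p = 0.00170), and without cisplatin replicate 1 it was 3.76 (adjusted p = 0.0286). The call was lost without bleomycin replicate 3 (4.23, adjusted p = 0.0556).

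AAD4 and ATR1, genes of detoxification and drug export, rose with cisplatin and were called higher than with bleomycin. AAD4, a member of the aryl-alcohol dehydrogenase family that responds to oxidants and electrophiles, had signals of 10.94 and 11.20 with cisplatin, 8.71, 8.75 and 9.12 with bleomycin, and 7.59, 8.35, 7.79 and 7.98 in controls. The cisplatin arrays were above all others. It rose 9.09-fold with cisplatin (adjusted p = 0.000630), and its 1.80-fold level with bleomycin was not called (adjusted p = 0.0851). The difference was 2.34 ± 0.30 (adjusted p = 0.0117). The call was lost without cisplatin replicate 1 or control replicate 1 (2.23, adjusted p = 0.108), without bleomycin replicate 2 or control replicate 4 (2.38, adjusted p = 0.0686 and 0.0692), and without bleomycin replicate 3 (2.62, adjusted p = 0.252). A second probe set for AAD4 gave 1.10 ± 0.43 (adjusted p = 0.514), with cisplatin changes of 0.02 and 2.12. The family's genes are much alike in sequence, so which of them the called probe set reads is uncertain. The relatives AAD6, AAD10 and AAD14, looked at after these values were seen, differed by 0.25, 0.04 and 0.13, and AAD10 had effects of 1.15 with cisplatin and 1.11 with bleomycin.

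ATR1 encodes a membrane transporter for multidrug resistance and boron export. Its signals were 7.01 and 7.91 with cisplatin, 5.44, 5.46 and 5.85 with bleomycin, and 5.50, 5.78, 5.77 and 5.96 in controls. Bleomycin and control arrays overlapped, and both cisplatin arrays were above them. ATR1 rose 3.28-fold with cisplatin (adjusted p = 0.0104), and the difference was 2.00 ± 0.29 (adjusted p = 0.0250). The call was kept without control replicate 5 (adjusted p = 0.0454) and lost without any other 1 of the 9 arrays, with differences of 1.76 to 2.14 and adjusted p up to 0.454.

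Other genes known to answer to the oxidant-sensing factor Yap1 were not called for the difference. OYE3, an NADPH dehydrogenase, had 7.22 and 7.67 with cisplatin, 6.25, 6.05 and 6.18 with bleomycin, and between 5.35 and 5.59 in controls. It rose with cisplatin (2.00, adjusted p = 0.00794), and the difference was 1.38 ± 0.31 (adjusted p = 0.163). OSI1, whose name comes from its induction by oxidative stress, had 5.76 and 6.75 with cisplatin, 4.82, 5.22 and 5.51 with bleomycin, and between 4.27 and 4.53 in controls (difference 1.14 ± 0.25, adjusted p = 0.163). RTA1, a membrane protein gene linked to resistance to aminocholesterol drugs, rose with cisplatin (1.59, adjusted p = 0.00849) and differed by 1.16 ± 0.25 (adjusted p = 0.156). FLR1, a drug exporter of the same family as Atr1, changed by 1.04 and 2.71 with cisplatin and by 0.27, 0.44 and 1.02 with bleomycin (1.38 ± 0.39, adjusted p = 0.280). For OYE3, OSI1 and RTA1 the rule that named them asked for changes that do not overlap, and FLR1 was named after its values were seen, so the order of the agents in these genes is a description.

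Of 25 oxidative stress genes, 1 was called higher (ATR1), where 0.0884% of all genes were. In 7 both cisplatin changes lay above and in 4 both lay below the bleomycin changes, where 12.5% and 15.2% of all genes did so, and the median difference was 0.17. GTT1, a glutathione transferase gene, changed by 0.72 and 0.54 with cisplatin and by 1.56, 1.76 and 1.95 with bleomycin (-1.21 ± 0.30, adjusted p = 0.214). GSH1, the first enzyme of glutathione synthesis, differed by 0.91 ± 0.57. Of 22 drug export genes, 1 was called (ATR1 again), 5 lay above and 4 below, where the same shares of all genes hold, and the median was 0.13. Without cisplatin replicate 2 that median was 0.0028, and with the ACT1 5′ covariate it was 0.06. PDR12, an exporter of weak acids, differed by -1.22 ± 0.32 (adjusted p = 0.228) and PDR5, the main drug pump, by 0.12 ± 0.53. The copper transporter gene CTR1, a route of cisplatin entry, differed by -0.49 (95% interval -1.15 to 0.17). The metallothionein gene CRS5 rose with cisplatin (1.09, adjusted p = 0.0491) and with bleomycin (1.99, adjusted p = 0.000452), and differed by -0.89 ± 0.29 (adjusted p = 0.381).

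In amino acid synthesis, ARG1 rose with cisplatin and was called higher than with bleomycin. It encodes argininosuccinate synthetase and had signals of 7.92 and 8.62 with cisplatin, 6.26, 6.39 and 6.48 with bleomycin, and 6.64, 6.67, 6.65 and 6.79 in controls. The groups did not overlap. ARG1 rose 2.99-fold with cisplatin (adjusted p = 0.0104), and its effect with bleomycin was -0.38 ± 0.20 (adjusted p = 0.501). The difference was 1.96 ± 0.27 (adjusted p = 0.0190), or 3.88-fold. The call was kept without control replicate 5 (adjusted p = 0.0369) and lost without any other 1 of the 9 arrays, with differences of 1.61 to 2.15 and adjusted p up to 0.454.

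All 8 measured genes of arginine synthesis had positive differences, with a median of 0.85, where 2626 of all 5656 genes had positive differences. These 8 genes were measured on the same arrays, so they are not repeats of a condition. In 5 of them both cisplatin changes lay above all bleomycin changes and in 0 below, where 12.5% and 15.2% of all genes did so. ARG7, an ornithine acetyltransferase, changed by 1.50 and 1.47 with cisplatin and by -0.43, 0.07 and -0.16 with bleomycin (1.65 ± 0.57, adjusted p = 0.458). ARG4, argininosuccinate lyase, changed by 0.36 and 1.59 with cisplatin and by -0.84, -0.39 and 0.17 with bleomycin (1.33 ± 0.34, adjusted p = 0.215). ORT1, the mitochondrial ornithine transporter, differed by 1.00 ± 0.30. ARG3, ornithine carbamoyltransferase, rose with both agents, by 1.65 with cisplatin and by 0.94 with bleomycin, and differed by 0.71 ± 0.25 (adjusted p = 0.458). CPA1, a subunit of the carbamoyl phosphate synthetase, differed by 0.52 ± 0.35, ARG2 by 0.19 ± 0.26 and ARG8 by 0.06 ± 0.23. The list's median lay between 0.74 and 0.87 when any 1 array was left out.

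Among 39 genes of other amino acid pathways that the activator Gcn4 serves, 0 were called by limma for the difference. At an unadjusted p under 0.05 there were 6, where 525 of all 5656 genes were. In 13 of the 39 both cisplatin changes lay above the bleomycin changes and in 2 below, where 12.5% and 15.2% of all genes did so. Their median difference was 0.32, and it was 0.12 without cisplatin replicate 2. The median effects were negative with both agents, -0.32 with cisplatin and -0.49 with bleomycin. The list's median same-day changes overlapped between the agents, at -0.52 and -0.06 with cisplatin and -0.78, -0.28 and -0.36 with bleomycin. HIS3, of histidine synthesis, changed by 2.67 and 1.47 with cisplatin and by -0.05, -0.14 and -0.74 with bleomycin, a difference of 2.36 with a standard error of 0.65 (adjusted p = 0.260). LYS21, homocitrate synthase, had 9.35 and 9.10 with cisplatin, 8.46, 8.05 and 7.49 with bleomycin, and between 7.93 and 8.72 in controls (1.42 ± 0.29, adjusted p = 0.143). ASN1, asparagine synthetase, differed by 1.43 ± 0.53 and HOM3, aspartate kinase, by 1.30 ± 0.35. LEU1 and THR1 had the opposite sign, at -0.73 ± 0.38 and -0.77 ± 0.51. Not every pathway of the list differed in one direction.

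ARO10 makes the decarboxylase that turns amino acid keto acids into fusel aldehydes. Its signals were 5.28 and 5.57 with cisplatin, 3.52, 3.27 and 3.41 with bleomycin, and 3.72, 4.03, 3.66 and 3.86 in controls. The bleomycin and control signals lie near the 20th percentile of all signals, 3.78, so a lower level there would be hard to measure. ARO10 rose 3.13-fold with cisplatin (adjusted p = 0.00794), and the difference was 2.11 ± 0.25 (adjusted p = 0.0100). The call was lost without cisplatin replicate 1 (2.16, adjusted p = 0.0667), control replicate 1 (2.16, adjusted p = 0.0690) or bleomycin replicate 3 (2.09, adjusted p = 0.334). FMP23, a gene for a mitochondrial protein, had 8.07 and 8.60 with cisplatin, 6.13, 6.22 and 6.12 with bleomycin, and no more than 6.56 in controls. Its difference of 2.11 ± 0.42 was not called (adjusted p = 0.135). MCH4, a relative of monocarboxylate transporters, differed by 1.36 ± 0.26 and NCW2, a cell wall protein gene, by 1.60 ± 0.31 (adjusted p = 0.115 for each). The rule that named FMP23, MCH4 and NCW2 asked for changes that do not overlap, so the order of the agents in them is a description.

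NCA3 and BDH2 rose with bleomycin and were called lower with cisplatin than with bleomycin. NCA3 belongs to the SUN family of glucanase-like proteins and takes part in the making of mitochondrial ATP synthase subunits. Its signals were 6.21 and 6.83 with cisplatin, 7.82, 8.64 and 9.45 with bleomycin, and between 5.60 and 6.17 in the 4 controls. Both cisplatin arrays lay below all bleomycin arrays and above all controls. NCA3 rose 6.56-fold with bleomycin (adjusted p = 0.000122), and its effect with cisplatin was 0.47 ± 0.28 (adjusted p = 0.356). The difference was -2.24 ± 0.32 (adjusted p = 0.0220). The call was lost without cisplatin replicate 1 or control replicate 1 (-2.25, adjusted p = 0.131), cisplatin replicate 2 (-2.23, adjusted p = 0.0781), bleomycin replicate 2 or control replicate 4 (-2.32, adjusted p = 0.0801 and 0.0798), and bleomycin replicate 3 (-1.69, adjusted p = 0.471).

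BDH2, a putative butanediol dehydrogenase gene, had signals of 4.02 and 5.69 with cisplatin, 6.24, 6.95 and 7.53 with bleomycin, and 4.99, 5.18, 5.21 and 5.59 in controls. The 2 cisplatin arrays lay on either side of the controls, and cisplatin replicate 1, the array with the low 5′ signals, was the lowest of all 9. BDH2 rose 2.83-fold with bleomycin (adjusted p = 0.00383), and the difference was -1.98 ± 0.29 (adjusted p = 0.0256). The call was lost without cisplatin replicate 1 (-1.66, adjusted p = 0.183), control replicate 1 (-1.66, adjusted p = 0.179), bleomycin replicate 2 (-1.90, adjusted p = 0.119), control replicate 4 (-1.90, adjusted p = 0.123) or bleomycin replicate 3 (-1.84, adjusted p = 0.749).

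Other genes, named by the smallest unadjusted p among those not called, rose with bleomycin and missed the threshold for the difference. SPG1, needed for survival in stationary phase, had 4.97 and 5.64 with cisplatin, 7.19, 6.68 and 7.00 with bleomycin, and between 4.74 and 5.10 in controls (difference -1.48 ± 0.25, adjusted p = 0.0685). YRO2, a relative of the membrane heat shock protein Hsp30, had 5.70 and 7.75 with cisplatin, 8.66, 8.99 and 9.35 with bleomycin, and between 7.03 and 8.08 in controls (-2.20 ± 0.38, adjusted p = 0.0712). PHM8, a phosphatase gene, had 4.90 and 5.78 with cisplatin, 6.81, 7.17 and 6.95 with bleomycin, and between 4.50 and 4.98 in controls (-1.63 ± 0.29, adjusted p = 0.0825). The rule that named these 3 asked for changes that do not overlap, and SPG1 was also a preset gene. ISF1, of respiratory metabolism, differed by -1.34 ± 0.24, YHR033W, of unknown function, by -1.55 ± 0.28, YCL048W-A by -1.24 ± 0.24 and SUT1, a regulator of sterol uptake, by -1.02 ± 0.20. Of 20 quiescence and stationary phase genes, 1 was called lower (NCA3), where 0.053% of all genes were. In 10 both cisplatin changes lay below and in 1 both lay above the bleomycin changes, where 15.2% and 12.5% of all genes did so, and the median difference was -0.57. It was -0.27 without cisplatin replicate 1 and -0.83 without cisplatin replicate 2.

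**Figure D4:**
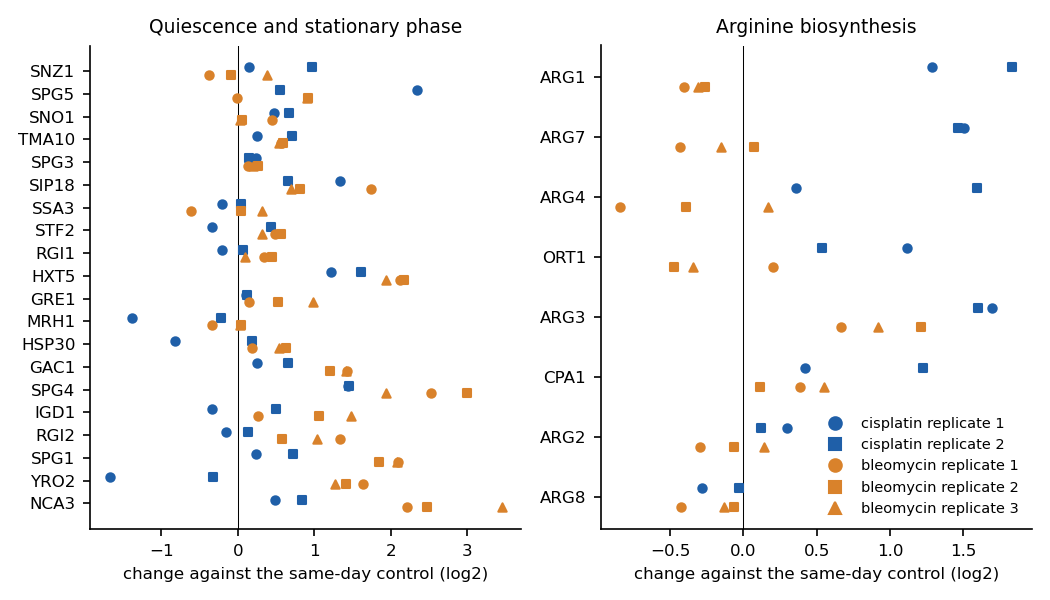
Same-day log2 changes (horizontal) of the 20 measured genes of quiescence and stationary phase (left) and the 8 of arginine biosynthesis (right), in order of the difference; blue marks are the cisplatin arrays and orange the bleomycin arrays. Both blue marks lie to the left of all orange marks in 10 of the 20 genes, and to the right of them in 5 of the 8.

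General stress genes, which the factors Msn2 and Msn4 turn on in many stresses, had mostly lower values with cisplatin than with bleomycin, with no member past the test of the difference. For 27 of 29 genes the difference was negative, where it was negative for 3030 of all 5656 genes. In 12 both cisplatin changes lay below the bleomycin changes and in 0 above (15.2% and 12.5% of all genes). For the difference 0 were called by limma, with 11 at an unadjusted p under 0.05 (525 of all 5656 genes). The median effects were 0.31 with cisplatin and 0.89 with bleomycin, 2 genes rose with cisplatin and 10 with bleomycin (0.955% and 2.32% of all genes), and the median difference was -0.70. The list's median same-day changes overlapped between the agents, at 0.10 and 0.53 with cisplatin and 0.42, 0.83 and 1.31 with bleomycin. The genes were measured on the same arrays, so they are not repeats of a condition. CTT1, the cytosolic catalase, had 5.62 and 6.11 with cisplatin, 6.67, 6.98 and 7.40 with bleomycin, and between 5.11 and 5.83 in controls (-1.19 ± 0.30, adjusted p = 0.215). DDR2, a small stress protein gene first found after DNA damage, had 9.54 and 10.71 with cisplatin, 10.78, 11.34 and 11.62 with bleomycin, and between 9.10 and 9.64 in controls (-1.12 ± 0.33, adjusted p = 0.315). HSP12, a membrane-protecting protein, rose with both agents, by 1.54 with cisplatin and by 2.24 with bleomycin, and differed by -0.69 (95% interval -1.54 to 0.15). The small chaperone gene HSP26 rose by 1.30 with cisplatin and by 2.15 with bleomycin, a difference of -0.85 (95% interval -1.52 to -0.18, adjusted p = 0.471). HXT5, a hexose transporter of slow growth, rose by 1.47 with cisplatin and by 2.04 with bleomycin, a difference of -0.56 (95% interval -1.14 to 0.01). The list's median difference lay between -0.94 and -0.43 when any 1 array was left out.

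**Figure D5:**
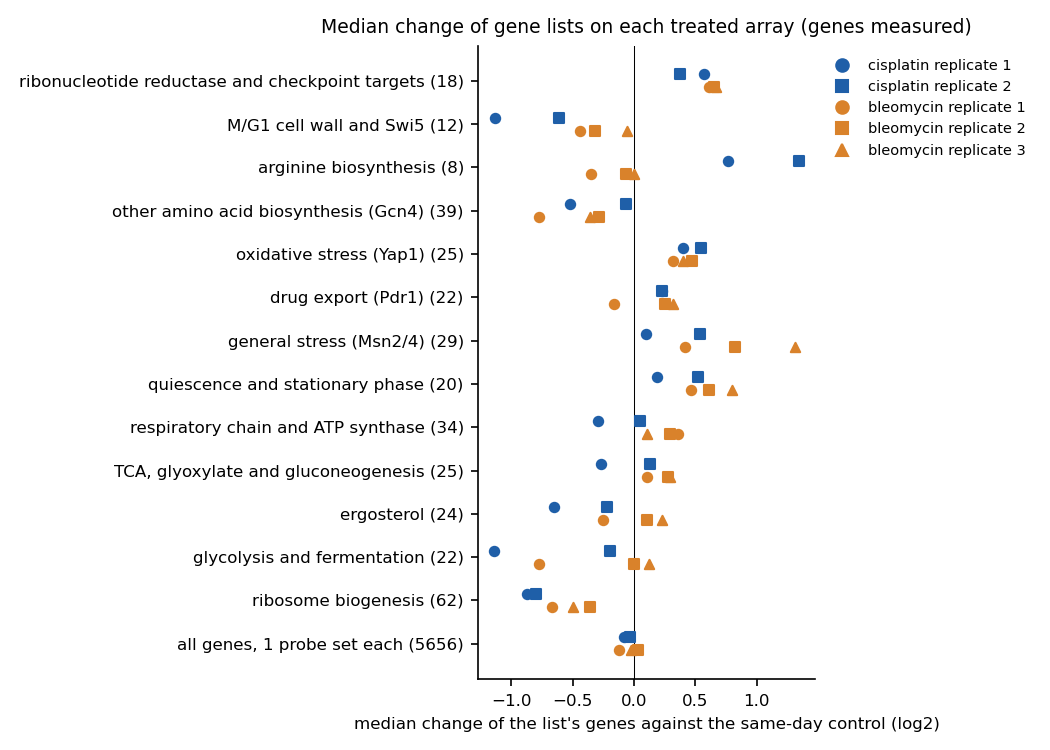
Median same-day log2 change (horizontal) of the genes of each list on the 2 cisplatin arrays (blue) and the 3 bleomycin arrays (orange); the number of measured genes follows each name. Arginine biosynthesis has both blue marks to the right of all orange marks, and for glycolysis cisplatin replicate 1 lies at -1.14 and cisplatin replicate 2 at -0.20.

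Genes of energy and membrane metabolism had negative medians, and 0 of their members were called by limma for the difference. The median difference was -0.32 for 34 genes of the respiratory chain and ATP synthase, where 13 had both cisplatin changes below the bleomycin changes and 1 above. Over all genes 15.2% lay below and 12.5% above. The respiratory median was -0.23 without cisplatin replicate 1 and -0.52 without cisplatin replicate 2. RIP1, the iron-sulfur subunit of respiratory complex III, changed by -2.05 and -0.63 with cisplatin and by 0.91, 0.17 and 0.46 with bleomycin (-1.64 ± 0.38, adjusted p = 0.197). The median was -0.39 for 25 genes of the TCA and glyoxylate cycles and gluconeogenesis, with 8 below and 1 above. It was -0.56 for 24 ergosterol genes, with 9 below and 1 above. The ergosterol median was -0.38 without cisplatin replicate 1 and -0.72 without cisplatin replicate 2. At an unadjusted p under 0.05, where 525 of all 5656 genes were, there were 7 respiratory, 6 TCA cycle and 7 ergosterol genes. Among these, ERG11, the target of azole drugs, changed by -0.94 and -1.10 with cisplatin and by -0.10, -0.43 and -0.14 with bleomycin (-0.84 ± 0.30, adjusted p = 0.458), and ERG25, a methyl oxidase gene, differed by -1.21 ± 0.37. ANB1, the form of translation factor eIF5A made when oxygen is short, had 6.57 and 6.74 with cisplatin, 7.62, 8.26 and 8.45 with bleomycin, and between 8.01 and 8.77 in controls. ANB1 fell with cisplatin (-1.91, adjusted p = 0.00794), and the difference was -1.60 ± 0.29 (adjusted p = 0.0825).

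In glycolysis the median difference moved with cisplatin replicate 1. The median difference of 22 glycolysis and fermentation genes was -0.60, with medians of -1.14 and -0.20 on the 2 cisplatin arrays and -0.78, 0.00 and 0.12 on the 3 bleomycin arrays. It was -0.15 without cisplatin replicate 1, -1.02 without cisplatin replicate 2 and -0.37 with the ACT1 5′ signal as a covariate. ENO2, the main enolase, changed by -4.36 and -0.22 with cisplatin and by -2.12, 0.09 and 0.26 with bleomycin, and PMA1, the proton pump of the plasma membrane, changed by -5.20 and -0.88 with cisplatin and by -1.53, -0.40 and 0.53 with bleomycin. Neither difference was called (-1.41 ± 0.87 for ENO2 and -2.30 ± 0.77 for PMA1). Cisplatin replicate 1 is also the array with the ACT1 5′ change of -5.29. For 62 ribosome biogenesis genes, 11 fell with cisplatin and 1 with bleomycin, where 1.63% and 0.743% of all genes fell. The median difference was -0.26, and 17 had both cisplatin changes below and 4 above the bleomycin changes, where 15.2% and 12.5% of all genes did so. RRS1, an assembly factor of the large subunit, changed by -1.90 and -1.18 with cisplatin and by -0.62, -0.46 and -0.53 with bleomycin (-0.91 ± 0.25, adjusted p = 0.245). For ribosome biogenesis the median was -0.24 without cisplatin replicate 1.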

How the data were processed

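The authors deposited 1 table of single-colour signals from Affymetrix Yeast Genome S98 arrays on the log2 scale, from 1.42 to 14.39, with array medians of 5.33 to 5.63. How they were summarised and normalized is not given in the sources used here. Per the labels' protocols, biotin-labelled cRNA was made from poly(A)+ RNA copied from an oligo(dT) primer. Of 9335 probe sets, 60 were controls. Gene names came from GEO's platform annotation, which gave 1 gene for 6504 probe sets, several for 328 and had no entry for 2443. Each of 5656 genes was read from its brightest probe set.

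All 24 arrays were quantile-normalized together (R 4.3.3, limma 3.58.1). lmFit and eBayes with an intensity trend then used 21 arrays, without the 3 NaCl arrays, which share days with bleomycin. The titles' days formed a block, so the pairing of treated and control arrays comes from the labels. The title of ethanol replicate 1 gives another year than the control it was placed with, and a fit without it was added after seeing the data. The MMS and ethanol arrays share no day with either agent and added only to the estimate of the spread, which had 6 residual degrees of freedom and a prior of 5.45. Named genes were the 12 largest called differences each way among genes whose changes did not overlap, filled up by the smallest p where fewer were called, up to 3 called members of each list, and 24 of 26 preset genes. 1 further gene list is not reported here. Other members were named as examples after their values were seen. The genes and the 36 lists were chosen with earlier results of these data known. On simulated data with 9275 probe sets, the fit of this comparison called 34.3%, 97% and 100% of changes of 1, 2 and 3 on the log2 scale, with 8 false calls. There 67, 67 and 66 changes of these sizes were planted, with equal noise on all arrays. On the real data YRO2 (-2.20) and FMP23 (2.11) were not called, so these shares may be too high for the real comparison. Precision is limited by the number of arrays.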

Additional observations from a re-analysis of the deposited data

Results flagged for a closer look

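A sample far from the others of its group was looked for among the 4 control arrays, over the named probe sets and the control probe sets along ACT1 and SPT15, with Dixon's gap test. Chance gives about 1 such array in 20 groups, and each probe set was tested as a group, so some of the arrays below would be flagged by chance. Control replicate 1 had the lowest signal of the cell wall protein gene NCW2, 6.78, where the other control arrays lay between 7.37 and 7.46. It is the control of cisplatin replicate 1, and NCW2 changed by 1.31 on that array and by 0.12 on the other cisplatin array. Control replicate 5, which both agents share on day D, had 5.28 for YHR033W, where the others lay between 5.48 and 5.51, and 7.50 for HSP26, where the others lay between 6.84 and 6.95. Control replicate 4 had 6.45 for the glucanase-like gene SCW11, where the others lay between 6.81 and 6.86. Control replicate 2 had 4.49 for the 5′ control probe set of SPT15, where the others lay between 5.76 and 5.94.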

How the results depend on the processing

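The 9 calls between cisplatin and bleomycin depended on the fit. With all 24 arrays 5 were called, with median scaling 14, with the deposited values as they stand 15, with 1 probe set for each gene 18, with the ACT1 5′ signal as a covariate 4, and with day as a random block 37, of which 6 were among the 9. With no replicate block 12 were called, 5 of them shared, and DSE2 (adjusted p = 0.323), ATR1 (0.488), BDH2 (0.607) and NCA3 (0.0565) were not. Without control replicate 11, an array of another day with a low ACT1 3′ signal that enters only the estimate of the spread, 92 were called, all 9 among them. Leaving out 1 of the 9 arrays in turn gave 0 to 98 calls. The extremes came without bleomycin replicate 3 (0 by limma, 309 at an unadjusted p under 0.05) and without cisplatin replicate 2 (98), where the lone cisplatin array was assumed to vary like the other groups. The cause of these changes was not tested. Only the 9 arrays compared gave 13 calls, and a filter at the 40th percentile, 4.88, gave 7. Without ethanol replicate 1, a fit chosen after seeing the data, 6 were called, all among the 9, and the cisplatin effect was called for 74 probe sets. With all 24 arrays that count was 11, and the bleomycin count 75. No called difference changed sign in any of these fits. The probe set 5476_at passed in 22 settings, HUG1 in 22 of 24, DSE2 in 21, ARO10 in 20 of 23, AAD4 in 18, NCA3 in 14, ARG1 in 14, BDH2 in 12 and ATR1 in 11. With 2 cisplatin arrays, a difference of 1 on the log2 scale was called in 34.3% of simulated cases, so many differences of that size would be missed. The real fit also left YRO2 (-2.20) and FMP23 (2.11) uncalled, so the simulated share may be too high.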

Other observations

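Genes of purine synthesis had negative median effects with both agents. Of 16 measured genes, 4 fell with cisplatin and 4 with bleomycin (1.63% and 0.743% of all genes), the median effects were -1.07 and -0.84, and the median difference was -0.04, with 0 called by limma and 0 at an unadjusted p under 0.05. The groups of proteasome genes (36 genes, median difference 0.07), sulfur amino acid genes (23 genes, -0.06), iron uptake genes of Aft1 (26 genes, 0.05), cytosolic ribosomal protein genes (61 genes, 0.06) and G1/S genes (22 genes, 0.06) had medians between -0.06 and 0.07, beside -0.04 over all genes. These medians moved with single arrays. Without cisplatin replicate 1 and without cisplatin replicate 2 they were 0.27 and -0.25 for proteasome genes, 0.29 and -0.11 for iron uptake genes, -0.04 and -0.14 for sulfur amino acid genes, 0.12 and 0.04 for ribosomal protein genes, and 0.05 and 0.12 for G1/S genes. The purine median was -0.07 and 0.13 in the same fits. Phosphate genes of Pho4 (14 genes, -0.35) and cell wall mannoprotein genes (34 genes, -0.29) were further from it, and without cisplatin replicate 2 their medians were -0.73 and -0.63, against -0.22 and -0.17 without cisplatin replicate 1. None of these groups held a called difference. At an unadjusted p under 0.05 were 3 of the 14 phosphate and 8 of the 34 cell wall genes, where 525 of all 5656 genes were.

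RDN25-1, a probe set for ribosomal RNA singled out after its values were seen, differed by -3.23 ± 0.68 (adjusted p = 0.154). It changed by -1.54 and -1.10 with cisplatin and by 0.05, 0.19 and 3.51 with bleomycin, so bleomycin replicate 3 stood apart from the other bleomycin arrays.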
